A study of Mus musculus with 2 samples.

Results

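The cells described here are the tumour-infiltrating regulatory T (Treg) cells with the most granzyme B transcript that carried little or no message for the chemokines Ccl3 and Ccl4. They were selected on measured expression of the genes named in the rule. Tumour barcodes were kept with at least 3834 unique molecular identifiers (UMIs, each 1 captured transcript), at least 200 genes, at most 10% mitochondrial UMIs, fewer than 20 UMIs of Pmel, Dct and Mlana together, and fewer than 3 of C1qa, C1qb and Lyz2 together. Cells with 2 or more UMIs of Mki67, Top2a, Ube2c, Cdk1 and Birc5, or with 3 or more of Ccl3 and Ccl4, were set aside, which left 688 cells. The 172 cells in the top 25% by the Gzmb share of all UMIs are the Gzmb-high cells, out of 3688 cells that passed the depth, gene and mitochondrial limits in the 2 libraries. The bottom 25%, with ties given to the cells with more UMIs, are the 172 Gzmb-low cells, and the rest form an upper middle and a lower middle group of 172 cells each.

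Treg cells are CD4 T cells that restrain immune responses under the transcription factor Foxp3. Effector Treg cells leave the lymph node, enter tissues and tumours with the help of chemokine receptors, and act through the cytokines interleukin-10 and interleukin-35, through CTLA-4, which takes costimulatory ligands from antigen-presenting cells, and in part through granzyme B, a serine protease of cytotoxic granules that triggers death of the cell it enters. Ebi3 encodes 1 chain of interleukin-35.

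The study made 1 library from a B16 melanoma (a transplantable mouse melanoma) at day 14 and 1 from the unchallenged lymph nodes, both from C57BL/6 mice aged 5 to 8 weeks that carry the Foxp3Cre-YFP allele, which makes Cre recombinase and a yellow fluorescent protein in cells that express Foxp3. Sorted cells were run on the 10X Chromium system, which reads the 3′ end of transcripts. The labels give neither the sort gate nor the number of mice. The allele is carried by both libraries.

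With 1 library per tissue there is no replicate, so no test between conditions was made, and cells of 1 library are not replicates. Levels are in CPM, UMIs summed over the cells of a group and scaled to a total of 1000000, and ratios carry a 95% interval that covers counting error only. The Gzmb-high cells had a median of 6043 UMIs and 1977 genes, and the Gzmb-low cells 7305 UMIs and 2185.5 genes. Between the libraries 1 cell barcode was shared, and no Gzmb-high cell carried it.

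The cells were chosen by their Gzmb share, so the Gzmb values are a description. A Gzmb-high cell held between 7 and 142 Gzmb UMIs, with a median of 23.5, or 1611 to 23534 CPM of the cell's own UMIs. The last cell inside the limit was at 1611 and the first outside at 1597 CPM, so the limit falls in a continuous range. From the highest to the lowest of the 4 groups, the summed level was 4868, 697.7, 72.4 and 0 CPM. Of all 688 cells, 273 (39.7%) had no Gzmb UMI, and the 172 deepest of them are the Gzmb-low cells. The other 101 lie in the lower middle group, at a median of 4404 UMIs against 7305 in the Gzmb-low cells. These 101 cells were set apart from the Gzmb-low cells by depth and not by Gzmb. The gated lymph node cells gave 3.49 CPM, with a Gzmb UMI in 16 of 2126 cells, and 1 of these reached the level of the Gzmb-high cells. Tumour droplets with 100 UMIs or fewer, which hold free RNA, had 777.7 CPM of Gzmb. The 18 tumour barcodes set aside for melanoma or macrophage transcripts had 28.1 CPM.

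**Figure D1:**
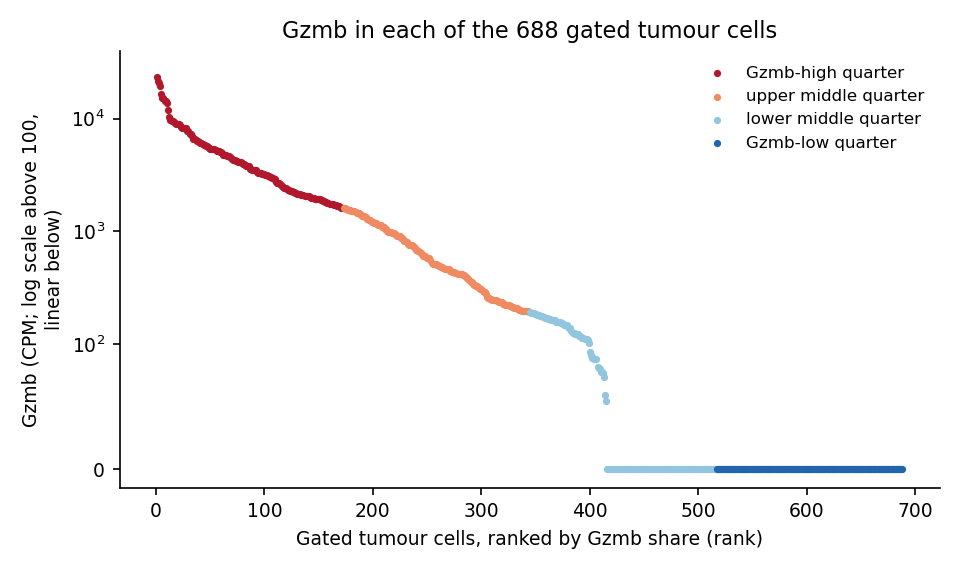
Gzmb in each of the 688 gated tumour cells, in CPM of the cell's own UMIs (vertical axis, logarithmic above 100 and linear below), against the cell's rank (horizontal axis). The 172 Gzmb-high cells run from 23534 down to 1611 CPM, with no gap at the limit, and 273 cells lie at 0.

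Gzmb (ENSMUSG00000015437) lies on the minus strand of chromosome 14, at 56258838 to 56262260 of GRCm38. Other granzymes were nearly absent from the same cells. Gzmc had 8 and Gzma 12 UMIs in all 172 Gzmb-high cells, against 4 and 21 UMIs in the Gzmb-low cells, and perforin (Prf1), which opens the path for granzymes into a target, had 6 against 2 UMIs. These counts are too low to order the groups.

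The RefSeq sequences (GRCm38.p6) of the 250 bases before the annotated start are shown for Gzmb and for 2 of the genes that were highest beside it and are in the RefSeq promoter table, Ctla2a (a cysteine protease inhibitor of T cells) and Bnip3 (a hypoxia-induced mitochondrial protein). Capitals mark TGANTCA (the AP-1 motif), TGTGGT (the RUNX motif) and ACGTG (the core of the hypoxia response element), searched on both strands. The Gzmb window is chr14:56262335-56262584, the Ctla2a window chr13:60936626-60936875 and the Bnip3 window chr7:138909507-138909756, each on the minus strand.
Gzmb: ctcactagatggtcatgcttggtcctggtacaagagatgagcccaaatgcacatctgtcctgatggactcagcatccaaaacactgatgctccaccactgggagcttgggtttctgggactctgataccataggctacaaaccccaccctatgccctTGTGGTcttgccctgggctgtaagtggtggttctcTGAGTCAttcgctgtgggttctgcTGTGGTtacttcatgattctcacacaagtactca
Ctla2a: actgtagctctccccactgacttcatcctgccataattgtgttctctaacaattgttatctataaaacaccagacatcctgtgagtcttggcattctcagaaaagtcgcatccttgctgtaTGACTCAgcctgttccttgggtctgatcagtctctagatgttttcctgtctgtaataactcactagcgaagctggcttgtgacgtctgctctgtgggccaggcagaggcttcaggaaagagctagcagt
Bnip3: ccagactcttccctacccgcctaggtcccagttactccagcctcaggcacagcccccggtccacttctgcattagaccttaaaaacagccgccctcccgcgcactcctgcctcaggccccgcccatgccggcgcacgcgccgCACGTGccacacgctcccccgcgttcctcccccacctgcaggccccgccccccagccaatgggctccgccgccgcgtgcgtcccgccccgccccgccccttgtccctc
Distances count from the RefSeq start. For Gzmb that start lies upstream of the GENCODE gene limit at 56262260, and for Bnip3 it lies inside the GENCODE gene, which reaches 138909519. Ctla2a has 2 starts in the RefSeq promoter table, and the first listed was used. The Gzmb window holds TGAGTCA 58 bases before the start and TGTGGT at 93 and 34 bases before it. The Ctla2a window holds TGACTCA at 129 bases, and the Bnip3 window holds ACGTG on both strands, overlapping as CACGTG, at 107 and 108 bases. Ctla2a and Bnip3 are shown because their windows hold a motif. Of the 12 leading higher genes 5 are in the table, of which 1 holds TGANTCA and 2 hold ACGTG, and of the 12 leading lower genes 10 are, of which 3 hold TGANTCA and 1 holds ACGTG. Among 27025 RefSeq windows of the same length, 6.87% hold TGANTCA, 14.2% hold TGTGGT and 16.6% hold ACGTG. These matches are letters in a window and nothing here measured binding.

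The label of the cells was set against markers. Transcripts of the Treg list (Foxp3, Il2ra, Ikzf2, Ctla4, Tnfrsf18, Tnfrsf4, Izumo1r and Ikzf4) came to 7557 CPM in the Gzmb-high cells and to 6094, 6036 and 6030 CPM in the groups below them. Foxp3 itself was sparse everywhere, with 32 UMIs in 27 of the 172 Gzmb-high cells, 37 UMIs in 32 of the Gzmb-low cells, and a ratio of 0.98 (0.59 to 1.62). Its level was 26.8 and 27.4 CPM in these groups and 22.6 CPM in the lymph node. Cd4 was found in 144 and Cd3e in 167 of the 172 Gzmb-high cells. Of the CD8 T cell list (5 genes), Cd8a, Crtam and Eomes were at 0. The sum was 21.0 CPM, against 35.6 CPM in the Gzmb-low cells. Of its 25 UMIs in the Gzmb-high cells 22 were Cd8b1, found in 17 cells. Of the natural killer cell list (7 genes), Ncr1, Klrb1c, Tyrobp, Klra8 and Klre1 were at 0, and 15 of its 17 UMIs were Il18rap. Neutrophil, mast cell and fibroblast markers were at 0. The melanoma list stood at 41.1 CPM in the Gzmb-high and 37.0 CPM in the Gzmb-low cells, against 1212 CPM in the free RNA. The conventional CD4 T cell list (5 genes) was at 48.7 CPM in the Gzmb-high and 36.3 CPM in the Gzmb-low cells. Of its genes Ifng had 33 against 29 UMIs and Il2 12 against 15. Cd40lg had 12 against 4 UMIs, a ratio of 3.40 (1.03 to 14.5). By these markers the cells were CD4 T cells with Treg transcripts, and Cd8a and the defining natural killer cell genes were at 0. With Foxp3 found in 27 cells, the markers do not exclude conventional CD4 T cells among them.

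Among 2921 genes with at least 200 UMIs over the 688 cells, 153 (5.24%) were at least 1.5-fold higher and 99 (3.39%) at least 1.5-fold lower in the Gzmb-high than in the Gzmb-low cells, with Gzmb left out. When ribosomal protein and mitochondrially encoded genes were taken out of the totals, which lowers every log2 ratio by about 0.10, the split became 106 higher and 160 lower, so the balance of higher and lower genes depends on this scaling. With cells ranked inside bins of total UMIs, which brings the median depths to 6056 and 6286 UMIs, 149 genes were higher and 85 lower. The genes that stood highest were the chemokine receptor Ccr2, Treg effector molecules and hypoxia-linked genes, and those that stood lowest were Il1r2, Penk, Tox and integrin subunits.

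Among named genes with at least 200 UMIs, and with Gzmb left out, the one whose counting interval lay farthest above 1 was a chemokine receptor. This was Ccr2, the receptor for Ccl2, which draws monocytes and effector T cells into inflamed tissue. Ccr2 was at 790 CPM in the Gzmb-high cells and at 514, 262 and 223 CPM in the 3 groups below. The ratio of the top to the bottom group was 3.54 (3.11 to 4.05). The gene lies on the plus strand of chromosome 9, at 124101950 to 124113557. With the top and bottom 10% in place of 25%, the ratio of Ccr2 was 5.71. In cells thinned to 3834 UMIs each, so that all are equally deep, a Ccr2 UMI was found in 82.0% of the Gzmb-high and 37.8% of the Gzmb-low cells (89.5% and 49.4% before thinning). In the 18 melanoma- or macrophage-positive barcodes the thinned share was 11.1%, at an original median depth of 67206 UMIs. Ccr2 was rare in the lymph node, at 10.7 CPM.

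Not every receptor followed. Of 20 chemokine receptor and egress receptor genes on the list, 7 had enough UMIs, of which 3 were at least 1.5-fold higher (Ccr2 and S1pr4 among them) and 1 lower (Gpr183), with a median log2 ratio of 0.25 against 0.04 over all genes measured. S1pr4 was at the limit, with a ratio of 1.51 (1.25 to 1.82), and was under 1.5-fold in 8 alternatives, down to 1.28 after thinning. Of the receptors of effector T cells in tissue, 2 were close to even, with ratios of 1.18 (1.04 to 1.34) for Cxcr3 and 1.19 for Cxcr6. Ccr8, a receptor of tumour Treg cells, was lower, with 22 against 53 UMIs and 2.13-fold less (1.27 to 3.67), but turned to the other side, at a log2 ratio of 0.34, when only the 26 cells a side with a Foxp3 UMI were used.

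**Figure D2:**
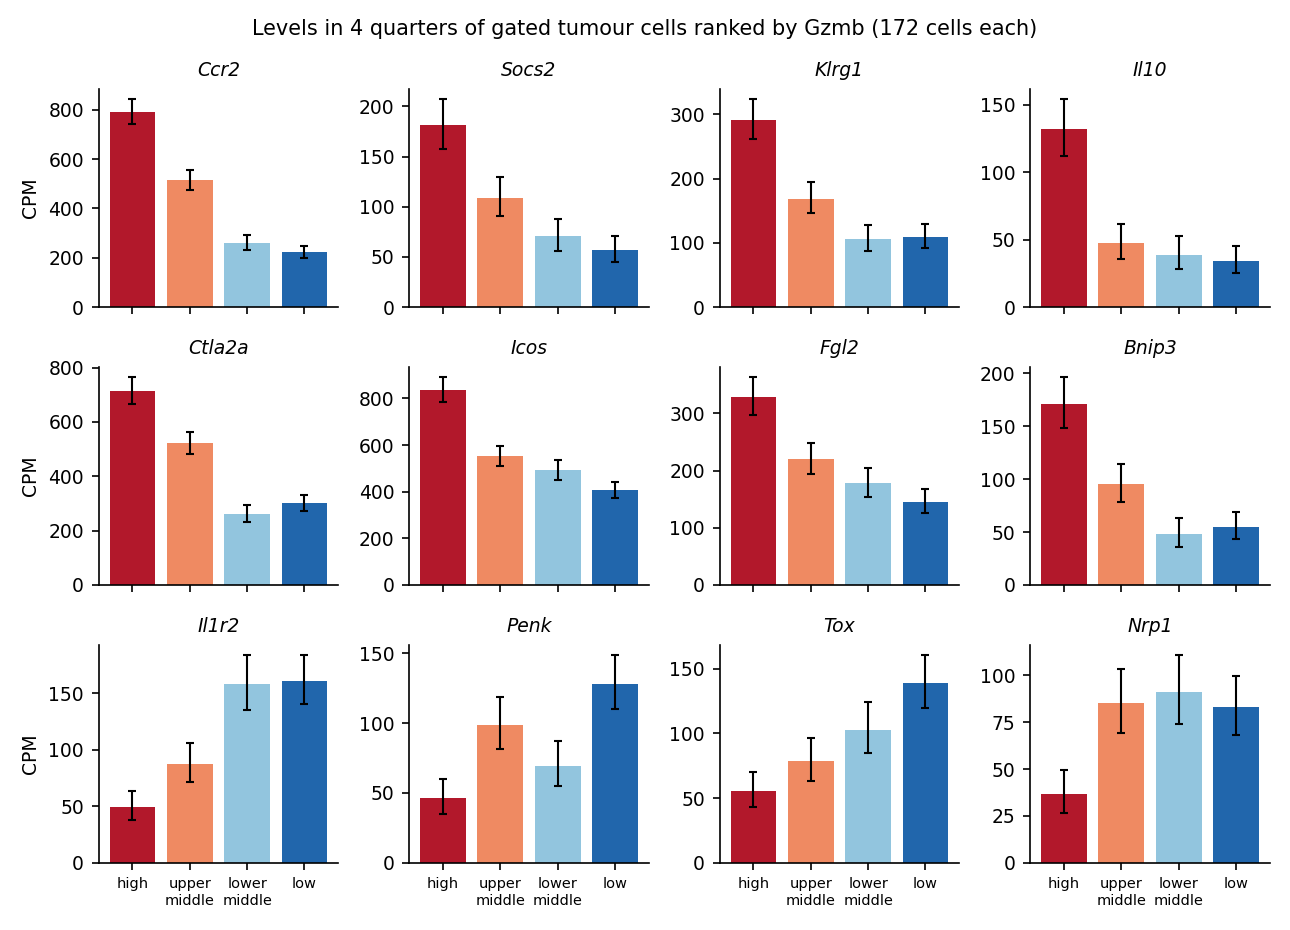
Summed CPM (vertical axis, each panel with its own scale from 0) of 12 genes in the 4 groups of 172 cells ranked by Gzmb, from high to low. Bars are levels and error bars are exact Poisson 95% intervals. Ccr2 steps down from 790 to 223 CPM and Tox steps up from 55.4 to 139 CPM.

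Part of the Treg effector genes were higher. Of the 13 measured genes of the effector list, 7 were at least 1.5-fold higher and 1 lower, 8 lay above 1 and 5 below, and the median log2 ratio was 0.70. Klrg1, an inhibitory receptor that marks terminally differentiated effector cells, was at 291, 169, 107 and 110 CPM from the top to the bottom group, a ratio of 2.66 (2.18 to 3.24). Icos, a costimulatory receptor that sustains effector Treg cells, was at 837, 552, 492 and 407 CPM, a ratio of 2.06 (1.85 to 2.29). The transcription factor Id2, which promotes effector differentiation, had a ratio of 1.67 (1.52 to 1.83), and the TNF receptor Tnfrsf9 (4-1BB) one of 1.62 (1.51 to 1.75). Both came under 1.5-fold, at 1.47 and 1.45, when ties were given to the cells with fewer UMIs. Batf, Rora, Gata3 and Bhlhe40, other transcription factors of tissue Treg cells, had ratios between 0.85 and 0.96. Prdm1, the effector regulator Blimp-1, had 50 and 46 UMIs and a ratio of 1.23 (0.81 to 1.88).

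The genes of Treg suppression did not move as a block. Of 10 measured, 3 were at least 1.5-fold higher, Il10, Fgl2 and Ctla4, and none lower. Il10 was at 132 CPM in the Gzmb-high cells and at 47.3, 39.0 and 34.1 CPM below, which sets the top group apart from the other 3. Its ratio was 3.87 (2.77 to 5.49). That ratio rests on few cells: 43 of 172 Gzmb-high cells had an Il10 UMI and the 5 richest held 48.4% of the UMIs, and in the Gzmb-low cells 1 cell held 43.5% of 46 UMIs. It was 2.41 after thinning, 2.34 between the top and bottom 10%, 2.47 in cells with no Ccl3 or Ccl4 UMI and 6.198 in cells with no mitosis gene UMI. At equal depth an Il10 UMI was found in 16.9% of the Gzmb-high (11.6% to 23.3%) and 5.81% of the Gzmb-low cells (2.82% to 10.4%), by exact Clopper-Pearson intervals. The shares before thinning were 25% and 9.88%, and none of the 18 background barcodes had one after thinning.

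Ebi3 was close to level in these cells, at 101, 91.2, 98.4 and 98.5 CPM from top to bottom, with a ratio of 1.02 (0.79 to 1.32). In the tumour cells that the rule left out, described further on, its ratio was 1.46 (1.20 to 1.77). Of the 29 Gzmb-high cells with an Il10 UMI after thinning, 24 had a Ccr2 UMI, 82.8%, beside 82.0% of all Gzmb-high cells. Ctla4 was at 1096 CPM against 614 CPM, a ratio of 1.78 (1.63 to 1.95), and Fgl2, a secreted fibrinogen-like suppressor, at 329 against 145 CPM, a ratio of 2.27 (1.90 to 2.70). Tgfb1 had a ratio of 1.01.

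Core Treg identity was mixed in size and mostly above 1. Of 12 measured genes, 11 were above 1, and Socs2, Lrrc32 and Ctla4 were at least 1.5-fold higher. The list's median log2 ratio was 0.30, beside 0.04 over all genes measured. Socs2, a feedback inhibitor induced by cytokines such as interleukin-2, was at 181, 109, 70.5 and 57.0 CPM, a ratio of 3.18 (2.44 to 4.18). Il2ra had a ratio of 1.32 (1.09 to 1.59), Ikzf2 of 1.13 (1.06 to 1.21), Tnfrsf18 of 1.30 (1.23 to 1.38) and Tnfrsf4 of 1.13 (1.07 to 1.20). The exception was Nrp1, a semaphorin receptor that is common on thymus-derived Treg cells, at 36.9 CPM against 85.3, 90.9 and 83.0 CPM in the groups below, 2.25-fold less (1.57 to 3.26). It was 1.45-fold less after thinning.

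Of the inhibitory receptors, Klrg1 and Ctla4 were higher as given above, and others were not. Pdcd1 (PD-1) had a ratio of 0.88 (0.75 to 1.05), Havcr2 (TIM-3) of 0.94 (0.59 to 1.51) and Lag3 of 0.73 (0.61 to 0.86). Tox, the transcription factor of exhausted T cells, ran opposite to Gzmb. It was at 55.4 CPM in the Gzmb-high cells and at 78.6, 103 and 139 CPM in the groups below, 2.51-fold less at the top (1.89 to 3.38). Of the 6 measured genes of the list, 1 was at least 1.5-fold higher (Ctla4) and 1 lower (Tox).

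Granule genes other than Gzmb were even or lower. Nkg7, a granule membrane protein of cytotoxic cells, was at 940 CPM against 996 CPM, a ratio of 0.94 (0.87 to 1.02). Srgn, the proteoglycan that packs granzymes in the granule, had a ratio of 1.10 (1.04 to 1.16). Ctsw, a cathepsin of cytotoxic cells, was 1.66-fold less (1.34 to 2.08), and 1.26-fold less after thinning. None of the 5 measured genes was at least 1.5-fold higher and 1 was lower.

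Protease inhibitors were split. Ctla2a was at 715, 521, 262 and 300 CPM, a ratio of 2.38 (2.11 to 2.69), so that both groups in the upper range of Gzmb stood above both in the lower. Ctla2b, on the same chromosome 13, had a ratio of 1.82 (1.30 to 2.57), and 1.26 after thinning. The pair are near copies, and reads may have been split between them. Serpinb6b had a ratio of 1.90 (1.33 to 2.76), and 1.39 between the top and bottom 10%. Serpinb9, which inhibits granzyme B and protects the cell that makes it, had 25 UMIs against 39 and a ratio of 0.73 (0.42 to 1.23). Of 8 measured, 3 were at least 1.5-fold higher and none lower.

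Vps37b, a subunit of the ESCRT-I complex that sorts membrane proteins for degradation, was at 197, 166, 136 and 105 CPM, a ratio of 1.87 (1.52 to 2.33). It depended on which cells without Gzmb formed the bottom group: the ratio was 1.08 with ties given to cells with fewer UMIs and 1.49 against all 273 cells with no Gzmb UMI. Of 10 measured sorting genes it alone was at least 1.5-fold higher, and the list's median log2 ratio was 0.09. Ifngr1, the ligand-binding chain of the interferon-gamma receptor, behaved alike, with a ratio of 1.67 (1.54 to 1.82) that was 1.18 under the other tie rule.

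Hypoxia and glycolysis genes stood above 1 throughout. All 8 measured hypoxia genes and all 15 measured glycolysis genes had ratios above 1, of which 4 and 5 were at least 1.5-fold. Their median log2 ratios were 0.62 and 0.43, beside 0.04 over all genes measured, and their lowest 0.11 and 0.14. Bnip3 was at 171, 95.4, 48.3 and 54.8 CPM, a ratio of 3.12 (2.38 to 4.13), Ddit4, an inhibitor of mTORC1, had a ratio of 1.96 (1.75 to 2.21) and Hilpda, a lipid droplet protein, one of 1.94 (1.72 to 2.19). Hilpda was just under 1.5-fold, at 1.496, without interferon-high cells. Slc16a3, the lactate exporter, led the glycolysis list at 224 against 116 CPM, a ratio of 1.94 (1.59 to 2.38), and 1.43 between the top and bottom 10%, while Ldha had a ratio of 1.16. Mt1, a metal-binding metallothionein, was at 234, 97.1, 52.9 and 78.5 CPM, a ratio of 2.98 (2.38 to 3.76), but 5 cells held 55.9% of its UMIs in the Gzmb-high cells, and the ratio was 8.84 with ties given to cells with fewer UMIs. Dgat1, the last enzyme of triglyceride synthesis, had a ratio of 2.22 (1.92 to 2.58).

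Genes of the cytoskeleton, calcium binding and sugar binding were higher in part. Of 15 measured S100, annexin, galectin and related genes, 4 were at least 1.5-fold higher and none lower, with a median log2 ratio of 0.31. Lgals3 (galectin-3) was at 263, 232, 94.7 and 85.9 CPM, a ratio of 3.06 (2.46 to 3.82), and S100a6 had a ratio of 1.75 (1.65 to 1.85). The dissociation-response list was also higher in part, with 4 of 14 at least 1.5-fold higher, among them Zfp36 at 2.27 (1.89 to 2.72) and Jun at 1.89 (1.35 to 2.67). Jun was 1.10 under the other tie rule and turned to the other side, at a log2 ratio of -0.29, in the cells with a Foxp3 UMI. The part of dissociation in these differences was not tested.

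Ccl5, the one chemokine ligand that was high in these cells although Ccl3 and Ccl4 were held low by the rule, was at 3936, 2258, 1342 and 2138 CPM, a ratio of 1.84 (1.76 to 1.93), and 1.36 with 91 cells a side when cells with 5 or more UMIs of Ifit1, Ifit3, Isg15, Rsad2 and Usp18 (interferon-high cells) were left out. The lower middle group stood below the bottom group, so that there was no steady order. Only 4 ligand genes were measured, of which 1 was at least 1.5-fold higher and 2 lower. Cxcl10, an interferon-induced chemokine, was 2.55-fold less (1.90 to 3.46), with 5 cells holding 71.0% of its UMIs in the Gzmb-low cells and 1 cell 53.2% in the Gzmb-high cells, and it was 3.43-fold higher between the top and bottom 10%.

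**Figure D3:**
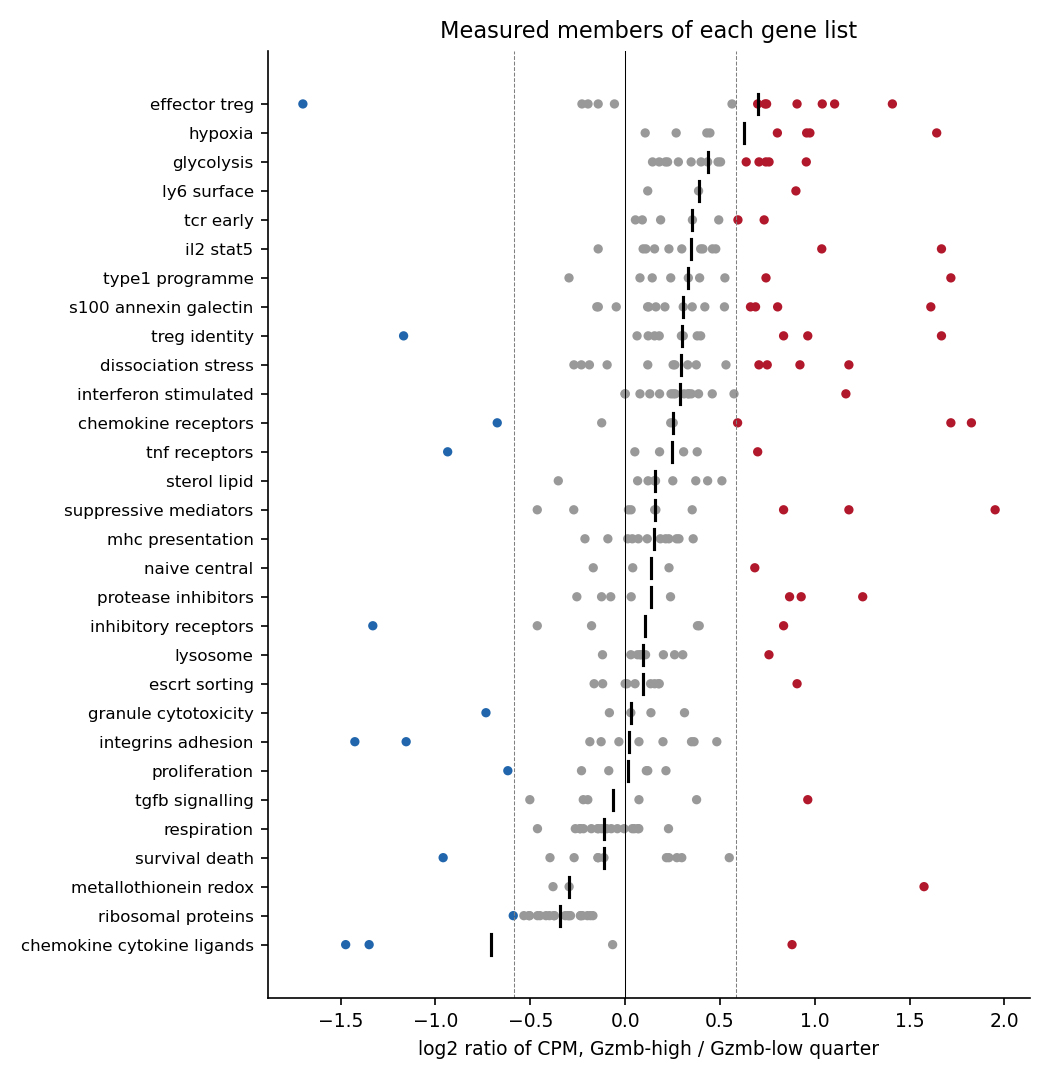
Log2 ratio of summed CPM, Gzmb-high over Gzmb-low cells (horizontal axis), for each measured gene of 30 lists (rows). Points are genes, red or blue past 1.5-fold (dashed lines), and black bars are list medians. The effector Treg list has the highest median, 0.70, and the 20 ribosomal protein genes all lie below 0.

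The gene that was lowest by its interval was Il1r2, the interleukin-1 decoy receptor of tumour Treg cells. It was at 49.5 CPM in the Gzmb-high cells and at 87.0, 158 and 161 CPM below, 3.25-fold less (2.42 to 4.41), and 2.001-fold less under the other tie rule. Penk, the enkephalin precursor, was at 46.1, 98.8, 69.6 and 128 CPM, 2.78-fold less (2.04 to 3.83), with 5 cells holding 74.5% of its UMIs in the Gzmb-high and 57.2% in the Gzmb-low cells. Without interferon-high cells it was 1.43-fold less. The integrin chains Itgb1 and Itga4, which pair as VLA-4 for adhesion to vessel walls, were 2.23-fold (1.68 to 2.99) and 2.69-fold less (1.67 to 4.45), while the other 8 measured adhesion genes were within 1.5-fold. Rgs16, a brake on chemokine receptor signals, was 2.47-fold less (1.85 to 3.34), and Pa2g4, which takes part in ribosome assembly, 2.48-fold less (1.76 to 3.55). Bcl2a1d, a survival gene of the BCL2 family with near copies in the genome, was 1.94-fold less (1.59 to 2.39), and 1.47-fold less under the other tie rule.

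Transcripts of naive and central memory T cells were nearly absent from the Gzmb-high cells. Tcf7, a transcription factor of resting T cells, had 0 UMIs against 39 in the Gzmb-low cells, which is at least 11.5-fold lower when the Gzmb-high group is set at a floor of 3 UMIs in all. The 95% counting bound of that difference is 8.90-fold. Ccr7, the lymph node homing receptor, had 1 UMI against 53, a 46.8-fold difference (8.04 to 1882), and Id3, a regulator of resting and memory T cells, had 1 against 31, a 27.4-fold difference (4.56 to 1115). At equal depth no Gzmb-high cell had a Ccr7 UMI, which allows a share of up to 1.74% by 3 counts of the total, against 8.14% of the Gzmb-low cells. Cells with 2 or more UMIs of Ccr7, Tcf7, S1pr1 and Id3 together numbered 64 of 688, of which 1 was Gzmb-high and 31 were Gzmb-low. Without these cells 136 genes were at least 1.5-fold higher and 70 lower, and the log2 ratios of Ccr2 and Il10 were 1.57 and 1.53, against 1.83 and 1.95 with them.

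Ribosomal and mitochondrial transcripts moved with the groups. From the top to the bottom group ribosomal protein genes made up 23.2%, 25.7%, 27.1% and 27.9% of all UMIs, and mitochondrially encoded genes 1.06%, 1.27%, 1.53% and 1.52%. Of 84 measured ribosomal protein genes 81 had a ratio below 1, with a median log2 ratio of -0.28, and all 10 mitochondrially encoded genes were below 1, with a median of -0.64. Nuclear genes of the respiratory chain were within 1.5-fold in all 18 cases. The part of these shares in the other ratios was not tested beyond the scaling given above.

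**Figure D4:**
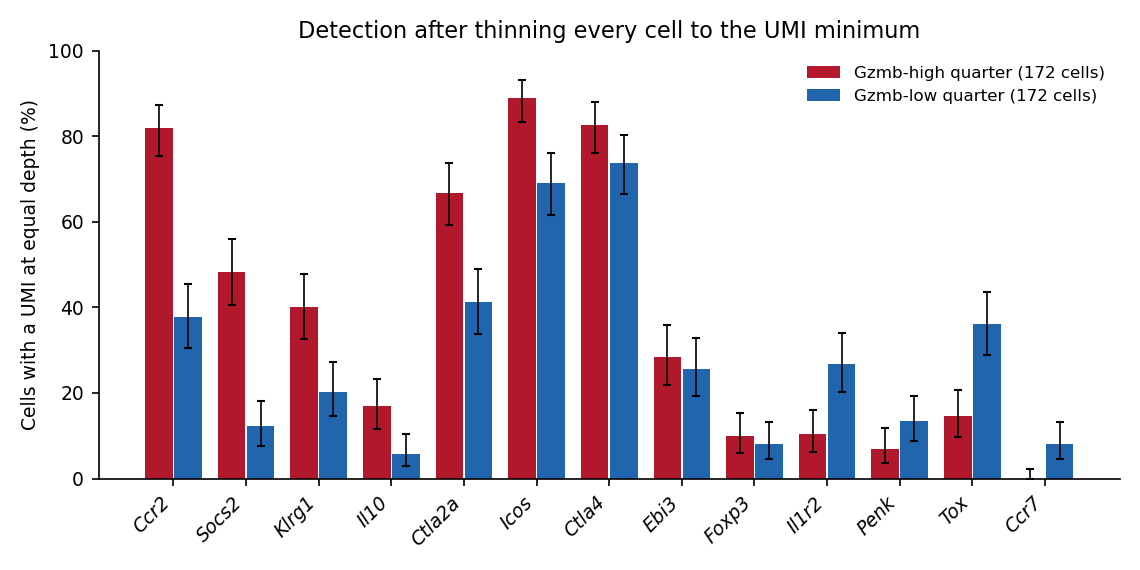
Percent of cells with at least 1 UMI of each gene (vertical axis) after every cell was thinned to 3834 UMIs, in the Gzmb-high and Gzmb-low cells (172 each). Error bars are exact Clopper-Pearson 95% intervals. Ccr2 stands at 82.0% against 37.8% and Tox at 14.5% against 36.0%, while Foxp3 and Ebi3 have overlapping intervals.

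The middle groups, which the comparison of the ends did not use, were set in order. Of the 153 higher genes, 78 (51.0%) declined at each step over the 4 groups, and of the 99 lower genes, 43 (43.4%) increased at each step. Over all 2921 genes the shares were 9.72% and 8.18%. A gene called between the ends already has its outer groups in order, so these shares are not an independent count. The last step is also in part a step in depth, since 101 lower middle cells had no Gzmb UMI. The upper middle group was above the lower middle group in 118 of the 153, and below it in 86 of the 99. No share over all genes is given beside these counts, so they do not show that the called genes differ from the rest. The upper and lower middle groups also differed in depth, with medians of 6092.5 and 5021.5 UMIs.

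The same ranking was then made in 769 tumour cells that the rule had left out, 683 with mitosis transcripts and 86 with Ccl3 or Ccl4. They come from the same library but share no cell with the 688. Their top and bottom 25% by Gzmb held 192 cells each, at 2416 and 0 CPM of Gzmb, with a median of 11796 and 13196 UMIs. The Gzmb-high ones included 25 and the Gzmb-low ones 21 cells set aside for Ccl3 and Ccl4, and the mitosis genes stood at 1246 and 1336 CPM. Of 5234 genes measured, 240 (4.59%) were at least 1.5-fold higher and 164 (3.13%) lower. Of the 153 genes higher in the 688 gated cells, 147 (96.1%) lay on the same side here and 58 (37.9%) were again at least 1.5-fold higher, beside 55.3% and 4.97% of all genes measured in both. In 1 gene, Plac8, the difference was past 1.5-fold in the other direction, at a ratio of 0.64. Of the 99 lower genes, 95 (96.0%) lay on the same side and 16 (16.2%) were again past 1.5-fold, beside 44.7% and 0.925% of all genes.

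Ccr2 again stood far apart, at 402 against 82.9 CPM, a ratio of 4.85 (4.22 to 5.598). Klrg1 had a ratio of 3.25 (2.72 to 3.91), Ctla2a of 2.48 (2.21 to 2.79), Fgl2 of 2.29 (1.97 to 2.67) and Icos of 1.81 (1.65 to 1.98). Bnip3 had a ratio of 2.47 (2.07 to 2.94) and Vps37b one of 1.67 (1.36 to 2.06). Il10 was at 139 against 25.04 CPM, a ratio of 5.56 (4.32 to 7.24), and in the mitosis-positive cells alone it was at 102 against 26.1 CPM, a ratio of 3.92 (3.01 to 5.17). Ebi3 was at 91.2 against 62.6 CPM, a ratio of 1.46 (1.20 to 1.77), and of 1.36 (1.11 to 1.67) in the mitosis-positive cells alone. Penk was 2.80-fold less (2.29 to 3.46) and Tox 1.54-fold less (1.26 to 1.87). Several genes did not carry over: Il1r2 was 1.09-fold less (0.93 to 1.27), Marcksl1 had a ratio of 1.02, and Lag3 and Cxcl10 lay on the other side, with Lag3 at 207 CPM in the Gzmb-high and 158 CPM in the Gzmb-low cells. Gzmc, 8 UMIs in the 172 Gzmb-high cells, was at 38.7 against 1.35 CPM in the left-out cells, a ratio of 28.6 (10.8 to 106.8).

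**Figure D5:**
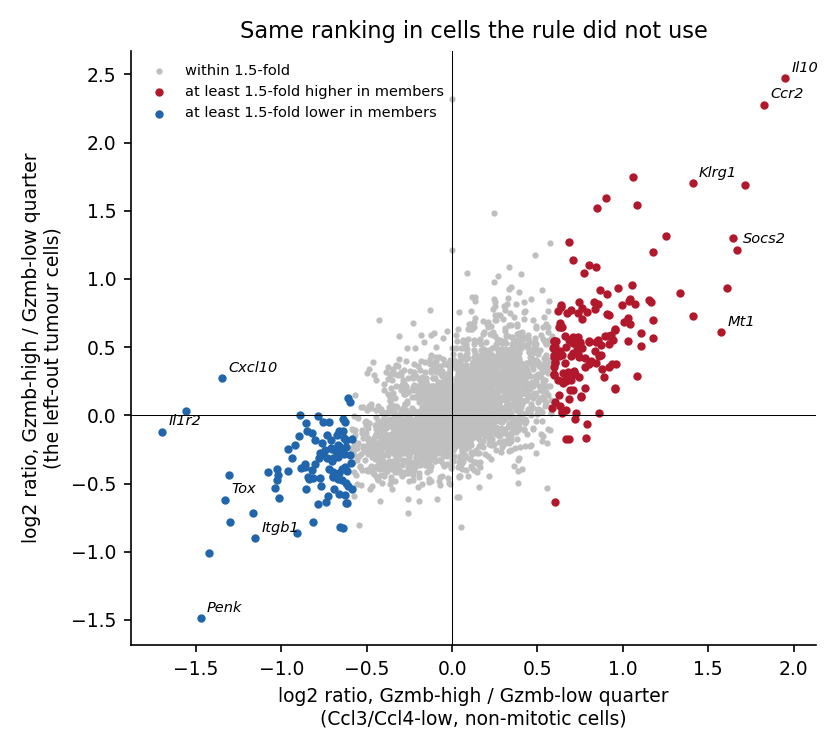
Log2 ratio of summed CPM, Gzmb-high over Gzmb-low, in the 688 gated cells (horizontal axis) and in the 769 left-out tumour cells (vertical axis), 1 point per gene measured in both. Ccr2 and Il10 lie at the upper right, with ratios of 3.54 and 3.87 on the horizontal and 4.85 and 5.56 on the vertical axis, while Il1r2 is low on the horizontal axis and near 0 on the vertical.

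The 86 non-mitotic tumour cells with 3 or more Ccl3 and Ccl4 UMIs, which pass every other gate of the 688, were set beside the Gzmb-high cells. They had 872 CPM of Gzmb against 4868 CPM, and 14 of 86 (16.3%) reached the level of the Gzmb-high cells. Their median depth was 8157 UMIs, against 6043 in the Gzmb-high cells. The groups thus differ by Gzmb, by the chemokine limit and in depth, and these ratios cannot tell the 3 apart. Of 1302 genes with at least 200 UMIs over both groups, 68 (5.22%) were at least 1.5-fold higher and 47 (3.61%) lower in the Gzmb-high cells. Ctla2a, at 715 against 246 CPM, had a ratio of 2.91 (2.48 to 3.43), Ccr2 of 2.39 (2.07 to 2.76), Icos of 2.31 (2.02 to 2.66) and Socs2 of 3.23 (2.31 to 4.61). The early-response genes Zfp36 and Cd69 had ratios of 3.38 (2.59 to 4.45) and 2.71 (1.99 to 3.75).

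Other genes stood lower in the Gzmb-high than in the chemokine-high cells. Lag3 was at 184 CPM in the Gzmb-high and 660 CPM in the chemokine-high cells, 3.59-fold less (3.06 to 4.23), Nkg7 at 940 and 2439 CPM, 2.59-fold less (2.41 to 2.80), Rgs16 5.55-fold less (4.18 to 7.44) and Il1r2 4.24-fold less (3.12 to 5.82). Il10 was at 132 and 250 CPM, a ratio of 0.53 (0.42 to 0.66), so among the non-mitotic cells the chemokine-high cells had more Il10 than the Gzmb-high cells. Ebi3 had a ratio of 1.20, at 101 and 84.1 CPM.

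Within the Gzmb-high cells, the 86 with the most Gzmb (3762 to 23534 CPM) were set beside the other 86 (1611 to 3603 CPM). Ly6c2, an effector T cell surface antigen, was at 431 against 103 CPM, a ratio of 4.18 (3.15 to 5.63), with 5 cells holding 54.2% of its UMIs in the Gzmb-high cells. Ccr2 was at 1000.1 against 570 CPM, a ratio of 1.75 (1.53 to 2.01), Il10 at 172 against 89.3 CPM, a ratio of 1.93 (1.37 to 2.74), and Mt1 at a ratio of 2.11 (1.63 to 2.75). Bnip3 and Vps37b had ratios of 0.88 (0.66 to 1.17) and 1.01 (0.78 to 1.32), so they were level inside the group, and Ccl5 one of 0.79 (0.75 to 0.84). Klf2, a transcription factor of quiescence and lymph node egress, was at 41.0 against 254 CPM, a ratio of 0.16 (0.10 to 0.25), but 1 cell held 34.1% of its UMIs.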

How the data were processed

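The 2 libraries, 1 from tumour and 1 from lymph node, were deposited as unfiltered 10X matrices of raw UMI counts (27998 genes by 737280 barcodes), made with Cell Ranger against mm10, per the submitters' processing notes. Neither its version nor the gene annotation is named in the labels. The tumour library held 23618037 UMIs and the lymph node library 14000036. A cell had at least 10% of the 99th percentile of UMIs among the 3000 largest barcodes, which is 3834 in tumour and 1811 in lymph node. Counts were summed per group and scaled to CPM over all genes (Python 3.11.15, numpy 2.4.6, scipy 1.17.1). Intervals are exact Poisson for levels, conditional binomial for ratios and Clopper-Pearson for shares, at 95%. UMIs of 1 library are not replicate samples, so no p-value was computed. A group without a UMI was set at a floor of 3 UMIs. Doublets were not called. The contrast was checked on simulated counts in which cells of a group differed by sampling and depth only. That check does not cover genes whose UMIs lie in few cells. Genes named are a fixed set of 33, the 12 leading genes each way by the interval bound nearest 1, up to 3 per list, and the 8 leading each way against chemokine-high cells. 1 gene that the rule names is not reported here. A few other list members were named after their values were seen. The members and lists were chosen with earlier results of these data known. Coordinates are from GENCODE M21 (GRCm38), in which 27645 of 27998 gene IDs matched. Alternatives covered the gene filter, scaling, depth, ties, group size and the gates.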

Additional observations from a re-analysis of the deposited data

Results flagged for a closer look

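Gzmb was present in tumour barcodes that the comparisons did not use. The 523 barcodes with at least 500 UMIs but fewer than the cell minimum of 3834 held 960.95 CPM of Gzmb (905 to 1019), against 4.82 CPM (0.58 to 17.4) in 398 lymph node barcodes with at least 500 and fewer than 1811 UMIs. Of these tumour barcodes, 86 (16.4%) reached the level of the Gzmb-high cells and 52 held 7 or more Gzmb UMIs, the fewest in any Gzmb-high cell. The free RNA of the tumour library was at 777.7 CPM.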

How the results depend on the processing

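No paired analysis was possible because each tissue has 1 library. The counts of 153 higher and 99 lower genes became 597 and 555 with a filter of 50 UMIs per gene, 29 and 11 with 1000, and 1666 and 1714 with none beyond 1 UMI. They were 360 and 244 for the top and bottom 10%, 63 and 46 in the 26 cells a side with a Foxp3 UMI, 61 lower genes for wider groups of 229 cells, and 160 lower genes with ribosomal and mitochondrial genes out of the totals. Against chemokine-high cells the 68 and 47 became 379 and 229 with 50 UMIs, 9 and 10 with 1000, and 28 lower genes without the 5% of cells with most UMIs. In the left-out cells the 240 and 164 became 720 and 557 with 50 UMIs, 55 and 21 with 1000, and 259 lower genes for the mean of per-cell CPM. The other 38 of 60 such counts stayed within 1.5 times. Stricter filters test fewer genes and small groups hold fewer UMIs; otherwise the cause was not tested.

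Among 66 named genes at least 1.5-fold apart, 14 of 1117 values over 17 settings changed sign. Klf2 had log2 ratios of -0.064 after thinning, -1.26 between the top and bottom 10%, -0.42 with ties to fewer UMIs, -1.77 in cells with a Foxp3 UMI and -0.0092 against all cells without Gzmb. Plac8 was at -0.12 after thinning and Cxcl10 at 1.78 between the top and bottom 10%. Gzma was at 1.54 with ties to fewer UMIs, 1.71 without interferon-high cells and 1.68 without central-memory-like cells. In cells with a Foxp3 UMI, Ccr8 was at 0.34, Jun at -0.29 and Pfkl at -0.087, and Rsad2 was at -1.02 without interferon-high cells. The median of the 4 ligand genes was 0.41 with the filter of 1000 UMIs, 0.56 for the top and bottom 10%, 0.10 without any mitosis UMI, 0.37 with Foxp3-positive cells alone and 0.078 without interferon-high cells. The cause was not tested.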

Other observations

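Several other gene lists each held at most 2 genes past 1.5-fold between Gzmb-high and Gzmb-low cells. All 12 measured genes of antigen presentation and all 10 of sterol and lipid synthesis were within 1.5-fold, with median log2 ratios of 0.15 and 0.16. Of 16 interferon-stimulated genes, 15 lay above 1 but only Rsad2 was at least 1.5-fold higher, at 76.3 against 34.1 CPM, and in the left-out cells 9 of 18 were. Rsad2 turned to the other side, at a log2 ratio of -1.02, without interferon-high cells, and was at ratios of 1.38 without any mitosis UMI and 1.01 in cells with a Foxp3 UMI. Of 12 genes of interleukin-2 and STAT5 signalling, 11 lay above 1 and 2 were at least 1.5-fold higher, Socs2 and Socs3. The median log2 ratio was 0.29 for the interferon-stimulated and 0.35 for these genes, beside 0.04 over all genes measured. Socs3 had a ratio of 2.05 (1.45 to 2.93), and 1.11 with ties given to cells with fewer UMIs. Npc2, a lysosomal cholesterol carrier, was the one of 10 lysosome genes past 1.5-fold, at 1518 against 898 CPM, a ratio of 1.69 (1.57 to 1.82).

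Among mitosis-positive tumour cells, 108 of 683 (15.8%) reached the Gzmb level of the Gzmb-high cells, beside 16.3% of the chemokine-high cells.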
